A study of Homo sapiens with 4 samples.

Results

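The genes described here carry out drug, steroid and bile acid metabolism in the liver. They were chosen by name, with earlier results of these data known. The list of 49 symbols covers cytochromes P450, esterases, epoxide hydrolases, glucuronosyl and sulfotransferases, dehydrogenases, nuclear receptors, membrane transporters and bile acid conjugation enzymes. Of these, 46 had a row among the 18382 symbols of the files, and UGT1A1, UGT2B10 and UGT2B15 were not analysed here. RNA had been sequenced from Huh1 and Huh7 cells, which are established lines grown from human hepatocellular carcinomas, transfected with a negative control siRNA or with an siRNA against ODC1, the gene of ornithine decarboxylase. The 4 libraries are Huh1 with control siRNA, Huh1 with ODC1 siRNA, Huh7 with control siRNA and Huh7 with ODC1 siRNA, so each combination is 1 library without a replicate, and no label gives the siRNA dose or the time after transfection. Expression is given in RPKM, reads scaled to transcript length and to library size, a scale on which levels of different genes can be compared. Depth, read from the steps between low values, lay between 10215332 and 13384836 reads per library. ODC1 itself, the check of the labels, stood at 24.2% of its control level in Huh1 (95% counting interval 22.1% to 26.5%) and at 4.49% in Huh7 (3.81% to 5.27%).

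Hepatocytes clear foreign compounds and hormones in stages. Cytochromes P450, esterases and dehydrogenases first add or expose a reactive group, transferases then attach glucuronic acid or sulfate, and pumps export the product into bile or blood. Bile acids are made from cholesterol in the same cells, joined to glycine or taurine, secreted, and taken up again from portal blood. Nuclear receptors that bind drugs (PXR, encoded by NR1I2, and CAR, encoded by NR1I3) or bile acids (FXR, encoded by NR1H4) control many of these genes, and FXR acts in part through the repressor SHP, encoded by NR0B2. Cultured liver cancer lines are known to keep only parts of this program.

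The label of liver cells was checked against markers. Of 10 hepatocyte markers, all were above 0 in each library, and their summed level lay at 6287 and 5708 RPKM in the Huh1 libraries, against 3472 and 2790.02 RPKM in Huh7. Between the lines, 7 of them were lower in Huh7 and 3 higher (limma adjusted p under 0.05), and AFP, the fetal albumin-like protein, was among the higher ones, at 24.8 and 23.8 RPKM in Huh1, against 865 and 687 RPKM in Huh7. Markers of other cells moved with the lines as well. The 5 fibroblast and stellate cell markers summed to 12.1 and 15.6 RPKM in Huh1, against 282 and 367 RPKM in Huh7. The 5 cholangiocyte markers summed to 2221 and 1888 RPKM in Huh1, against 177 and 155 RPKM in Huh7. Most of the Huh1 sum was SPP1, at 2107 and 1769 RPKM in Huh1, against 13.1 and 14.1 RPKM in Huh7. Gene by gene the 5 were mixed, with 2 lower and 3 higher in Huh7 (limma adjusted p under 0.05). The 5 intestinal markers summed to 268 and 296 RPKM, against 51.1 and 73.4 RPKM. They were mixed too, with 4 tested, 3 lower and 1 higher in Huh7 (limma adjusted p under 0.05). The higher one was CDX2, at 0.0357 and 0.0852 RPKM in Huh1, against 1.22 and 1.73 RPKM in Huh7. LGALS4, 1 of the lower ones, reached 1 RPKM in Huh1 alone and CDX2 in Huh7 alone. Endothelial markers were near 0, with a sum of at most 0.0247 RPKM in any library. The 5 blood cell markers summed to 24.4 and 26.7 RPKM in Huh1, against 15.0 and 21.6 RPKM in Huh7. Of these 5, HBB was at 0 throughout and PTPRC at most 0.147 RPKM, and 2 could be tested, 1 lower and 1 higher in Huh7. The part of these marker differences in the results below was not tested. In RNA from whole cultures, fewer cells expressing a gene and less RNA per cell cannot be told apart.

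How much of the program each line expressed was asked first. In Huh1 with control siRNA 32 of the 46 genes were at 1 RPKM or more, 19 at 10 RPKM or more and 6 at 100 RPKM or more. In Huh7 with control siRNA the same counts were 19, 4 and 1. The ODC1 libraries gave 31, 20 and 6 genes in Huh1 and 21, 4 and 1 in Huh7. The plot of levels by library shows this as a shift of most Huh7 points to the left of the Huh1 points, with both siRNAs of a line lying close together.

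**Figure D1:**
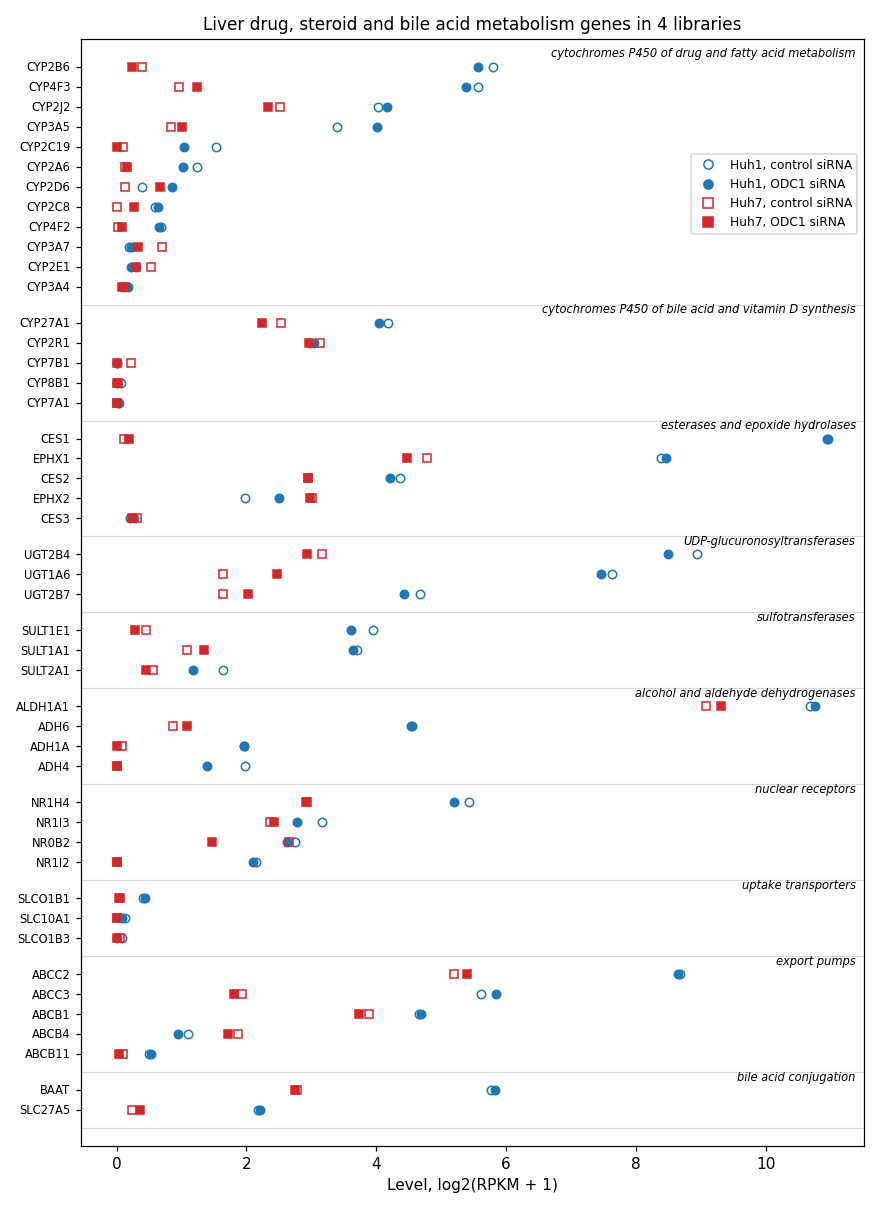
Level of each of the 46 genes, as log2(RPKM + 1) on the horizontal axis, in the 4 libraries, grouped by role. Blue circles are Huh1 and red squares Huh7, open for control siRNA and filled for ODC1 siRNA. For 34 of the genes both Huh7 points lie to the left of both Huh1 points.

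Both Huh7 values lay below both Huh1 values for 34 of the 46 genes (73.9%), where 27.6% of all 18398 listed transcripts did so. Both lay above for 4 genes (8.70%), where 39.4% of all transcripts did so, and 8 genes overlapped. This count needs no filter on low values. The genes were chosen with earlier results of these data known, so their comparison with all transcripts is a description and not a test. Of the 21 genes at 1 RPKM or more in both lines, 17 were below and 2 above in Huh7. Of the 14 genes under 1 RPKM in every library, 6 were below and 2 above.

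The line difference was then tested gene by gene with limma on log2(RPKM + 1), with siRNA as a second term, over 12039 transcripts that reached 1 RPKM in any library. Of the 46 genes 32 were tested, and 29 were lower and 2 higher in Huh7 at an adjusted p under 0.05. Among all tested transcripts 30.8% were lower in Huh7 and 43.1% higher. The median difference, Huh7 minus Huh1, was -2.02 over the 32 genes and 0.13 over all tested transcripts. However, 11 of the 32 reached 1 RPKM in Huh1 alone, so that passing the filter already favoured a difference. Of the 21 that reached it in both lines, 18 were lower and 2 higher in Huh7. Over all tested transcripts that reached it in both lines, 30.4% were lower and 40.0% higher. The test compares 2 libraries of each line, which are not stated to be separate cultures. Its spread comes from how far the siRNA effect differs between the lines, with 1 residual degree of freedom. In limma this spread is drawn towards a trend over all tested transcripts. The p-values therefore do not measure the spread between cultures of a line.

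**Figure D2:**
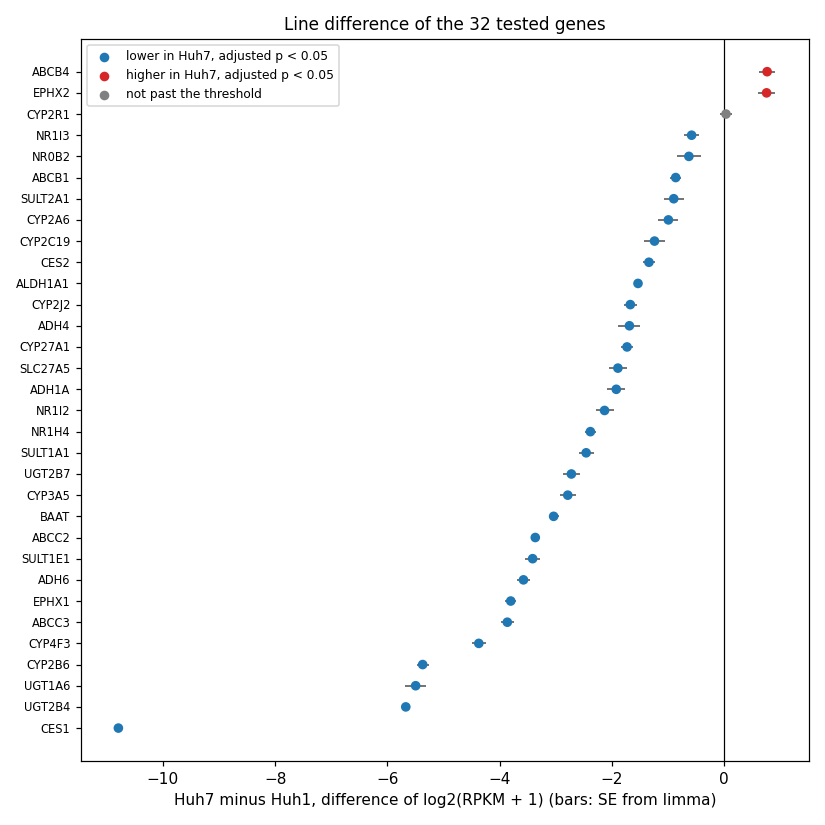
Huh7 minus Huh1, as the difference of log2(RPKM + 1), for the 32 tested genes, with the standard error from limma as a bar. Blue points are lower and red points higher in Huh7 at an adjusted p under 0.05, and the grey point did not pass. CES1 stands farthest to the left at -10.79, and EPHX2 and ABCB4 are the 2 red points.

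Among the hydrolases, CES1, the main carboxylesterase of human liver, which cleaves ester drugs, differed most of the 32. It was at 1991 and 1962 RPKM in the control and ODC1 libraries of Huh1, ranks 16 and 18 of all transcripts, and at 0.0817 and 0.146 RPKM in those of Huh7. The Huh7 values correspond to about 2 and 3 reads. CES1 passed the filter through Huh1 alone, which already favoured a lower value in Huh7. The ratio of Huh1 to Huh7 was 17328 with a 95% counting interval of 8274 to 59473 (limma difference -10.79, SE 0.075, adjusted p = 1.76e-11). CES2, the carboxylesterase better known from intestine, was much closer, at 19.5 and 17.5 RPKM in Huh1, against 6.69 and 6.71 RPKM in Huh7 (2.76-fold, adjusted p = 4.33e-06). CES3 was at most 0.246 RPKM in any library and its lines overlapped. All 3 esterase genes lie on chromosome 16, CES1 at 55802851 to 55833337 and CES2 and CES3 farther along at 66934444 to 66945096 and 66961237 to 66975148 (GENCODE, GRCh38).

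The epoxide hydrolases went opposite ways. EPHX1, the microsomal enzyme that opens epoxides formed by P450s, was at 335 and 354 RPKM in Huh1, against 26.6 and 21.3 RPKM in Huh7, 14.4-fold lower. EPHX2, the soluble enzyme that acts on fatty acid epoxides, was at 2.93 and 4.68 RPKM in Huh1, against 7.09 and 6.91 RPKM in Huh7. It was 1.84-fold higher in Huh7 (limma difference 0.76, SE 0.15, adjusted p = 0.00175), and both Huh7 values exceeded both Huh1 values.

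Of the 12 P450s of drug and fatty acid metabolism, 6 were tested and all 6 were lower in Huh7. Only 2 of them, CYP2J2 and CYP4F3, reached 1 RPKM in both lines. The others passed the filter through Huh1 alone, which already favoured a lower value in Huh7. Among all tested transcripts at 1 RPKM or more in both lines, 30.4% were lower in Huh7. CYP2B6, a CAR target that oxidises bupropion and efavirenz, was at 54.9 and 46.5 RPKM in Huh1, against 0.315 and 0.180 RPKM in Huh7 (205-fold, counting interval 123 to 329, limma adjusted p = 2.37e-09). CYP4F3, an omega-hydroxylase of leukotrienes and fatty acids, was at 46.3 and 40.5 RPKM against 0.950 and 1.35 RPKM (37.7-fold). CYP2J2, an epoxygenase of arachidonic acid, differed less, at 15.4 and 16.9 against 4.72 and 4.06 RPKM (3.67-fold). CYP3A5, the polymorphic member of the CYP3A locus, was at 9.50 and 15.1 against 0.787 and 1.00 RPKM (13.8-fold). These 4 made up most of the summed P450 level of this group, 131 and 123 RPKM in Huh1, against 8.23 and 8.11 RPKM in Huh7.

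The P450s that dominate adult liver were near 0 in both lines. CYP3A4, which oxidises more marketed drugs than any other P450, was at most 0.128 RPKM, corresponding to about 3 reads, and CYP2E1, the ethanol-inducible form, at most 0.443 RPKM. CYP3A7, the fetal form at the same locus, was at 0.144 and 0.171 RPKM in Huh1, against 0.631 and 0.259 RPKM in Huh7. It and CYP2E1 were the 2 P450s of the named set with both Huh7 values above both Huh1 values, each on at most 15 reads in a library. CYP2C8 (at most 0.556 RPKM), CYP4F2 (0.608 RPKM) and CYP2D6 (0.805 RPKM) also stayed below the filter. CYP2A6, the nicotine oxidase, was at 1.36 and 1.04 RPKM in Huh1, against 0.0930 and 0.111 RPKM in Huh7. CYP2C19, which activates clopidogrel, was at 1.90 and 1.06 RPKM in Huh1, against 0.0742 and 0 RPKM in Huh7. Both were lower in Huh7 (adjusted p = 0.00101 and 0.000331 by limma), from levels in Huh1 just above the filter. Members of the CYP3A, CYP4F and CYP2 subfamilies are close in sequence, and several of their values correspond to fractions of a read, so the split between copies is uncertain.

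Promoters of these genes are shown because 3 drug-metabolising P450s share a sequence word for the liver factor HNF4A and yet stood at different levels. The word CAAAGTCCA was searched on both strands in the 250 bases before the start site, in the 37 of the 49 genes that matched a RefSeq promoter (GRCh38.p14). It occurred in CYP2A6, CYP2B6 and CYP2C8, which is 8.11% of the 37, and in 0.325% of 35116 promoters. It is in capitals below, and TGGACTTTG is its reverse complement. The windows lie at chr19:40850449-40850549 (minus strand), chr19:40991032-40991105 (plus strand) and chr10:95069498-95069596 (minus strand), and each is written along the gene's own strand.
CYP2A6: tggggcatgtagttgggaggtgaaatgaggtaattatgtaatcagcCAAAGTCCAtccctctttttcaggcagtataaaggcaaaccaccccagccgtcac
CYP2B6: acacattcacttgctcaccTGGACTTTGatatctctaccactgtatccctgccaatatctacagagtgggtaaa
CYP2C8: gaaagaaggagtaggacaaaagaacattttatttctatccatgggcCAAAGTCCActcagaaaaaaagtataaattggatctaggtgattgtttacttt

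The word is centred 52 bases before the start of CYP2A6 and 49 bases before that of CYP2C8, and 227 bases before that of CYP2B6. In Huh1 with control siRNA the 3 genes stood at 1.36, 0.505 and 54.9 RPKM. HNF4A itself, named here for its motif, was at 86.1 and 79.3 RPKM in Huh1, against 55.4 and 42.3 RPKM in Huh7 (limma difference -0.76, SE 0.083, adjusted p = 4.57e-05). Other words were searched in the same way. The nuclear receptor core words AGGTCA and AGTTCA were each in 27.03% of the 37, and in 12.1% and 8.80% of all. The FOXA word TGTTTAC was in 8.11% and 2.98%, and the C/EBP word TTGCGCAA was in none of the 37 and in 0.131% of all. These are matches of letters, of which short words occur often, and not measured binding sites.

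The P450s of bile acid synthesis were low or moderate. CYP7A1, the rate-limiting enzyme of the classical route, was at most 0.0260 RPKM in Huh1 and listed at 0 in both Huh7 libraries. CYP8B1, which directs the route towards cholic acid, was at most 0.0438 RPKM, and CYP7B1, of the alternative route, was above 0 in Huh7 with control siRNA alone, at 0.171 RPKM. CYP27A1, the mitochondrial enzyme that starts the alternative route, was the expressed one. It was at 17.1 and 15.5 RPKM in Huh1, against 4.76 and 3.71 RPKM in Huh7 (3.84-fold, limma adjusted p = 1.32e-06). CYP2R1, a hydroxylase of vitamin D, was the 1 tested gene that did not pass between the lines. It was at 6.93 and 7.21 RPKM in Huh1, against 7.80 and 6.78 RPKM in Huh7 (difference 0.036, SE 0.11, adjusted p = 0.785), and its sign turned with the scaling, to -0.043 with upper quartile scaling and -0.069 with quantile normalization.

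Conjugating enzymes separated the lines widely. UGT2B4, a glucuronosyltransferase of bile acids and catechol oestrogens, was at 492 and 362 RPKM in Huh1, against 7.99 and 6.66 RPKM in Huh7 (58.3-fold, limma difference -5.67, SE 0.079, adjusted p = 5.77e-10). UGT2B7, which glucuronidates morphine, was at 24.7 and 20.6 RPKM against 2.13 and 3.08 RPKM (8.69-fold). UGT1A6, a transferase of small phenols, was at 198 and 175 RPKM against 2.11 and 4.55 RPKM (56.1-fold). Its row is the 1 row of the UGT1A locus used here. In GENCODE the genes UGT1A6 (chromosome 2, 233691607 to 233773300) and UGT1A1 (233760248 to 233773299) overlap at their 3' ends, so reads of the shared exons may come from UGT1A1 or another gene of the locus.

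The 3 sulfotransferases of the named set were lower in Huh7 as well. SULT1E1, which sulfates oestrogens, was at 14.5 and 11.2 RPKM in Huh1, against 0.371 and 0.223 RPKM in Huh7 (43.3-fold). SULT1A1, a phenol sulfotransferase with near-identical copies, was at 12.1 and 11.4 against 1.13 and 1.53 RPKM (8.83-fold). SULT2A1, which sulfates bile acids and DHEA, was at 2.11 and 1.26 against 0.474 and 0.374 RPKM (3.96-fold). Each of the 3 was lower in Huh7 (adjusted p = 8.15e-08, 5.80e-07 and 0.00155 by limma). Of them SULT1A1 alone reached 1 RPKM in both lines, and the others passed the filter through Huh1. SULT1C4, a family member outside the set and chosen after its values were seen, went the other way. It was at 0.0449 and 0.0878 RPKM in Huh1, against 40.1 and 38.4 RPKM in Huh7 (limma difference 5.24, SE 0.12, adjusted p = 3.34e-09). SULT1C4 passed the filter through Huh7 alone.

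Among dehydrogenases, ALDH1A1, which oxidises retinal, was the most abundant gene of the set in Huh7 and the second in Huh1. It was at 1650.3 and 1730.1 RPKM in Huh1, against 539 and 632 RPKM in Huh7, a 2.89-fold difference. The alcohol dehydrogenases were all lower in Huh7, though ADH1A and ADH4 reached 1 RPKM in Huh1 alone. ADH6 was at 22.4 and 22.3 RPKM against 0.819 and 1.12 RPKM (23.1-fold). ADH1A was at 2.89 and 2.88 RPKM in Huh1, against 0.0547 and 0 RPKM in Huh7, where it rested on 1 read. ADH4 was at 2.94 and 1.62 RPKM in Huh1, from 78 and 36 reads, and had no read in either Huh7 library. With a floor of 3 reads per library, it was at least 15.4-fold higher in Huh1.

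All 4 nuclear receptors were called lower in Huh7, by very different amounts, though NR1I2 reached 1 RPKM in Huh1 alone. NR1I2 (PXR) was at 3.43 and 3.31 RPKM in Huh1, from 126 and 102 reads, and had no read in either Huh7 library. It was thus at least 31.5-fold higher in Huh1, with the same floor of 3 reads per library. NR1H4 (FXR) was at 41.9 and 35.7 RPKM against 6.65 and 6.59 RPKM (5.86-fold, limma adjusted p = 1.03e-07). NR1I3 (CAR) was at 8.01 and 5.87 against 4.16 and 4.39 RPKM (1.62-fold, adjusted p = 0.00494). NR0B2 (SHP) was at 5.70 and 5.19 against 5.29 and 1.77 RPKM. Its lines overlap, and its call (difference -0.63, SE 0.22, adjusted p = 0.0296) rests on the low value in Huh7 with ODC1 siRNA. Without that library or its Huh1 partner, the control libraries alone differ by -0.092.

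The 3 uptake transporters of the named set were near 0. SLC10A1, the sodium-dependent bile acid importer NTCP, was at most 0.0916 RPKM in Huh1 and had no read in Huh7, and SLCO1B3 was at most 0.0551 RPKM. SLCO1B1, which takes up statins and bilirubin, was at 0.322 and 0.352 RPKM in Huh1, against 0.0294 and 0.0351 RPKM in Huh7. None of the 3 reached the filter. Other uptake carriers did, among them SLCO2B1, an organic anion carrier chosen here after its values were seen, at 18.5 and 15.3 RPKM in Huh1, against 3.15 and 4.27 RPKM in Huh7. SLCO1A2 and SLCO4C1 of the same family, chosen likewise, went the other way. SLCO1A2 was at 0.0673 and 0.0371 RPKM in Huh1, against 2.06 and 2.05 RPKM in Huh7. SLCO4C1 was at 0.0228 and 0.0334 RPKM in Huh1, against 2.13 and 1.51 RPKM in Huh7.

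Export pumps were expressed in both lines. ABCC2 (MRP2), which moves conjugates into bile, was at 408 and 399.9 RPKM in Huh1, against 35.8 and 41.1 RPKM in Huh7 (10.5-fold). ABCC3 (MRP3), which moves them into blood, was at 48.04 and 56.7 against 2.81 and 2.52 RPKM (19.7-fold). ABCB1, the multidrug pump P-glycoprotein, was at 24.1 and 24.7 against 13.8 and 12.3 RPKM (1.87-fold, limma adjusted p = 4.24e-05). ABCB4, which exports phosphatidylcholine into bile and neighbours ABCB1 on chromosome 7, went the other way. It was at 1.14 and 0.921 RPKM in Huh1, against 2.66 and 2.27 RPKM in Huh7 (2.39-fold higher, limma difference 0.77, SE 0.15, adjusted p = 0.00144). ABCB11, the canalicular bile acid pump BSEP, was at most 0.448 RPKM. Of the conjugation enzymes, BAAT, which joins bile acids to glycine or taurine, was at 53.4 and 56.0 against 5.89 and 5.69 RPKM (9.45-fold). SLC27A5, which activates bile acids for it, was at 3.51 and 3.62 against 0.173 and 0.290 RPKM (15.4-fold). SLC27A5 reached 1 RPKM in Huh1 alone.

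The question of the siRNA was whether these genes differed between ODC1 and control siRNA, first over both lines. Taking Huh1 and Huh7 as repeats, limma called none of the 32 genes, where 2.12% of all tested transcripts were called. An unadjusted p under 0.05 was reached by 4 of the 32, namely UGT2B4, NR0B2, CYP3A5 and ALDH1A1, where 19.0% of all tested transcripts reached it. A trend on counting variance in place of intensity also called none, with 3 under an unadjusted p of 0.05, beside 18.8% of all transcripts. The median difference, ODC1 minus control, was -0.050 over the 32 genes and 0.0063 over all tested transcripts. Both lines lay on the same side of 0 for 13 of the genes, 10 negative and 3 positive, and on opposite sides for 17. Beside this, the 10 hepatocyte markers had a median difference of -0.058 in Huh1, with 6 of 10 negative, and of -0.36 in Huh7, with 8 of 10 negative. Of them 1 rose and 1 fell with ODC1 siRNA over both lines, and 1 intestinal and 1 fibroblast marker rose (limma adjusted p under 0.05). The part of these markers was not tested.

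UGT2B4 came closest to the threshold. With control and ODC1 siRNA it was at 492 and 362 RPKM in Huh1, against 7.99 and 6.66 RPKM in Huh7, lower with ODC1 siRNA in both. The difference of -0.34 (SE 0.079) had an adjusted p of 0.0694 by limma, which became 0.0373 with upper quartile scaling and 0.152 with the trend on counting variance. By counting alone the ratio in Huh1 was 0.736 (95% interval 0.716 to 0.756), and in Huh7 it was 0.833 (0.668 to 1.04). ALDH1A1 was higher with ODC1 siRNA in both lines, by ratios of 1.05 and 1.17, without passing (difference 0.15, SE 0.058, adjusted p = 0.218). CYP3A5 was at 9.50 and 15.1 RPKM in Huh1, a ratio of 1.59 (1.27 to 1.99), and at 0.787 and 1.00 RPKM in Huh7. Its difference of 0.39 (SE 0.15) did not pass (adjusted p = 0.198).

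Within Huh1 the 32 genes at 1 RPKM or more differed little between the siRNAs. The comparison has 1 library on each side and no test. None reached a 2-fold difference of log2(RPKM + 1), where 0.0825% of all transcripts at 1 RPKM or more did so, and the differences ran from -0.59 to 0.62. These ends were ADH4, at 2.94 RPKM with control and 1.62 RPKM with ODC1 siRNA, and CYP3A5. Of the 32 genes 22 were negative and 10 positive, with a median of -0.094, beside a median of 0.021 over all transcripts at 1 RPKM or more. The counting interval of the ratio lay below 1 for 14 and above 1 for 5 of the 32. Over all transcripts at 1 RPKM or more with a GENCODE length, it lay below 1 for 14.5% and above 1 for 20.1%. The interval narrows as the level rises, covers counting error alone and says nothing of the spread between cultures. Among those below 1 were CYP2B6 (0.846), SULT1E1 (0.774), NR1I3 (0.733) and NR1H4 (0.852), and among those above 1 were EPHX2 (1.60) and ABCC3 (1.18).

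Within Huh7, 21 of the genes were at 1 RPKM or more, and 12 were negative and 9 positive, with a median of -0.033 (all transcripts -0.0034). NR0B2 was the 1 gene past 2-fold, where 0.771% of all transcripts at 1 RPKM or more were. It went from 5.29 to 1.77 RPKM with ODC1 siRNA in Huh7, from 82 to 23 reads, a ratio of 0.335 (counting interval 0.201 to 0.537). In Huh1 it was at 5.70 and 5.19 RPKM, from 97 and 74 reads, a ratio of 0.910 (0.663 to 1.24). Over both lines its difference of -0.65 (SE 0.22) did not pass (limma adjusted p = 0.166). Its activator in the bile acid response, FXR, had a ratio in Huh7 (NR1H4) of 0.990 (0.814 to 1.20). NR5A2, another activator of NR0B2, had a ratio of 0.520 in Huh7 and 0.797 in Huh1. The part of either in the level of NR0B2 was not tested.

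UGT1A6 was at the other end in Huh7, at 2.11 RPKM with control and 4.55 RPKM with ODC1 siRNA, a ratio of 2.15 (1.57 to 2.96). On log2(RPKM + 1) this was 0.83, below 2-fold, and with a pseudocount of 0.1 it passed 2-fold. In Huh1 its ratio was 0.884 (0.852 to 0.917). The other genes of the set in Huh7 with counting intervals off 1 were EPHX1 (0.801) and ABCB1 (0.893) below, and ABCC2 (1.15) and ALDH1A1 (1.17) above. With NR0B2 and UGT1A6 these were 3 below and 3 above of 21, where 23.3% of all transcripts lay below 1 and 23.8% above. The hepatocyte markers summed to 3472 RPKM with control and 2790.02 RPKM with ODC1 siRNA in Huh7, and their part in these values was not tested. CYP2D6, below the filter, went from 7 to 15 reads in Huh1 and from 2 to 10 reads in Huh7, ratios of 2.55 (0.980 to 7.41) and 5.97 (1.27 to 56.04).

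**Figure D3:**
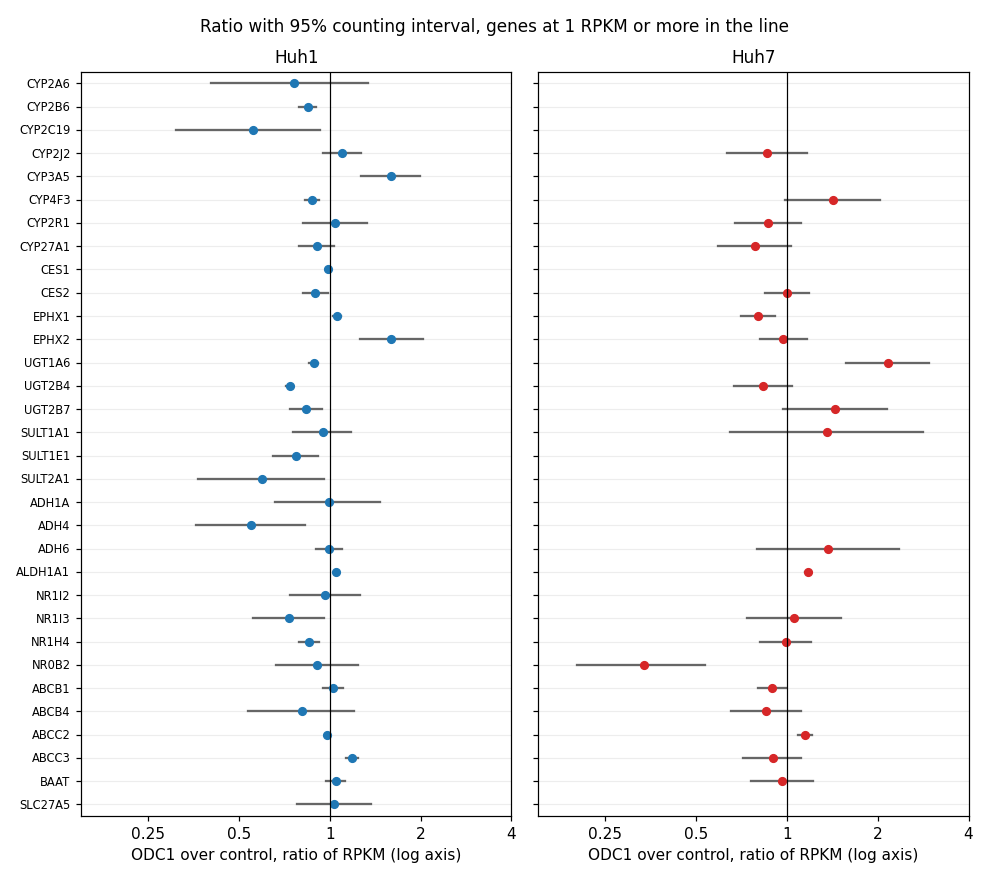
Ratio of RPKM with ODC1 siRNA over control siRNA in Huh1 (left) and Huh7 (right) for genes at 1 RPKM or more in that line, on a log axis. Points are ratios of 1 library to 1 library, and bars are 95% counting intervals. Most points lie near 1, and in Huh7 NR0B2 (0.335) and UGT1A6 (2.15) stand apart.

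Other genes of the same pathways were taken from 7 lists, 195 genes in all, of which 137 rows could be tested. Between the lines 78 were lower and 40 higher in Huh7, with a median of -0.53, beside 30.8% and 43.1% of all tested transcripts. Phase I oxidation and reduction had 26 of 35 lower and 5 higher, with a median of -1.47. Phase II conjugation outside the named set was even, with 10 lower and 10 higher of 21. Regulators were also near even, with 9 lower and 8 higher of 21. Hydrolases had 6 lower and 4 higher of 10, steroid hormone metabolism 12 and 5 of 22, bile acid synthesis 6 and 3 of 12, and transporters 9 and 5 of 16. Some genes passed the filter through Huh1 alone and others through Huh7 alone, which already favoured a difference. Of those at 1 RPKM or more in both lines, 55 of 103 were lower and 30 higher in Huh7. In phase I oxidation and reduction 17 of 24 were lower and 4 higher. Over all tested transcripts at this level in both lines, 30.4% were lower and 40.0% higher. The lists share their scope with the named genes, and were not tested as lists.

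**Figure D4:**
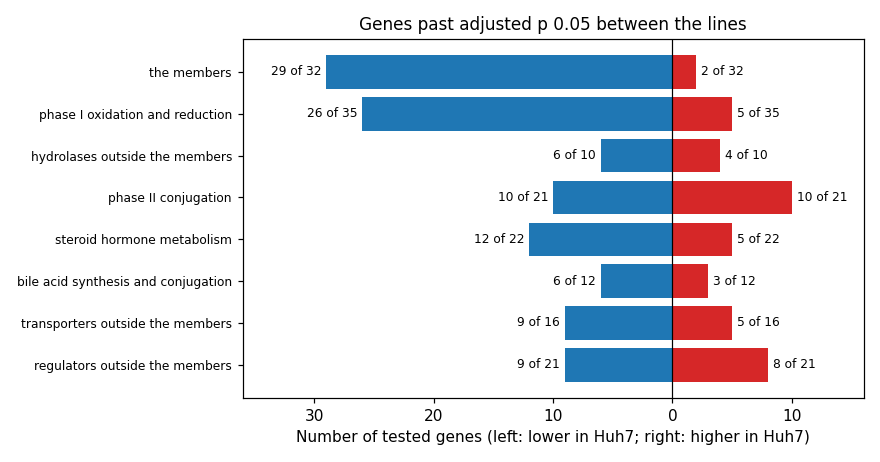
Number of tested genes past an adjusted p of 0.05 between the lines, for the 32 named genes and 7 lists of other genes of the pathways. Bars to the left count genes lower in Huh7 and bars to the right genes higher in Huh7. The named genes have 29 of 32 on the left and phase I oxidation and reduction 26 of 35. Of the genes at 1 RPKM or more in both lines these counts are 18 of 21 and 17 of 24. Over all tested transcripts at this level in both lines, 30.4% were lower in Huh7.

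For the siRNA, 2 of the 137 passed over both lines, beside 2.12% of all tested transcripts. Both were higher and both are P450s induced by the aryl hydrocarbon receptor. CYP1A1, which oxidises polycyclic hydrocarbons, was at 31.4 and 47.3 RPKM in Huh1, against 8.55 and 19.3 RPKM in Huh7, and rose by 0.83 (SE 0.12, limma adjusted p = 0.021). CYP1B1, at 13.5 and 34.8 RPKM in Huh1, against 1.53 and 6.30 RPKM in Huh7, rose by 1.42 (adjusted p = 0.00239). Both calls were lost with no filter, with no trend and without the line term, and that of CYP1A1 also with a pseudocount of 0.1. None of the 137 was lower past the threshold, and with the trend on counting variance 1 was. This was NQO2, a quinone reductase, at 84.3 and 67.4 RPKM in Huh1, against 11.2 and 8.59 RPKM in Huh7 (adjusted p = 0.0737 with the intensity trend and 0.0348 with the counting trend). PROX1, a repressor of bile acid synthesis genes, was at 13.2 and 10.4 RPKM in Huh1, against 55.9 and 38.5 RPKM in Huh7 (-0.42, adjusted p = 0.057). NR5A2 (LRH-1), an activator of CYP7A1 and NR0B2, was at 12.03 and 9.59 RPKM in Huh1, against 21.4 and 11.1 RPKM in Huh7 (-0.59, adjusted p = 0.0683). Both passed with upper quartile scaling (adjusted p = 0.0288 and 0.0315 by limma).

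The largest differences in the remaining lists did not pass. HSD17B2, which inactivates oestradiol and testosterone, was at -0.43 (limma adjusted p = 0.115), and HSD17B14 at 0.48 (adjusted p = 0.091). Values for CYP39A1, an oxysterol hydroxylase of bile acid synthesis, and for AMACR, a racemase of the same route, were -0.40 and 0.23. The export pump ABCC4 (MRP4) was at -0.36 and ATP8B1, a lipid flippase of the canalicular membrane, at 0.32. In the conjugation and hydrolase lists, SLC35B2, the importer of the sulfate donor into the Golgi, was at 0.36, UGT2B11 at 0.39, PON1 at 0.24 and CMBL at -0.37.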

How the data were processed

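Total RNA was sequenced as 4 libraries made with the Illumina TruSeq kit, per the labels' protocols. The submitters' processing notes name CASAVA 1.8.2, TopHat2 2.0.9 and the build hg19. No source used here names the read counter, the annotation release or whether strand was used. The files hold RPKM per RefSeq transcript, computed and deposited by the authors, without counts.

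Depth came from the commonest value of 1 read on transcripts of known GENCODE 29 length. Some low values stood at fractions of 1 read (10 to 27 values per library and fraction, against 116 to 124 at 1 read). Of the genes, 11 gave whole reads in all libraries (tolerance 0.01 reads). Other read numbers use the GENCODE length and are rounded. Ratios have exact Clopper-Pearson intervals on these reads, with a confidence level of 95%, limited to counting error. A value of 0 allows up to 3 reads.

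The scale was log2(RPKM + 1), which understates changes of weak genes. Line, siRNA and an intensity trend entered limma 3.58.1 (R 4.3.3), over 12039 transcripts at 1 RPKM or more in any library, with 1 residual degree of freedom. P-values were adjusted after Benjamini and Hochberg over all of them, with a threshold of 0.05. In 3 simulations of the siRNA contrast, each with 200 changed genes, 90.5% of the 1.5-fold changes and every 2-fold and 4-fold change were recovered, but 12.6% of the calls were false, above the nominal rate. With the counting trend 5.31% were false. For the line contrast 8.12% were false. The changed genes had a mean of 5 RPKM or more. In the siRNA simulations both lines had the same level and the same siRNA effect, with a small fixed spread between libraries. The recovery therefore does not cover weaker genes or siRNA effects that differ between the lines. Line is the block that pairs the siRNAs. Within a line, 2-fold was a rule of size.

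The 49 members and the lists were chosen with earlier results of these data known. All members are accounted for. Other genes were named if they passed for the siRNA, or were among the 2 with the largest mean difference in their list at 5 RPKM or more. Alternatives were other scalings, pseudocounts, filters, trends, terms and a 1.5-fold rule. The result for 1 further promoter word is not reported here.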

Additional observations from a re-analysis of the deposited data

Results flagged for a closer look

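The siRNA ratio of 3 genes lay on opposite sides of 1 in the lines, beyond counting error in each. UGT1A6 had a ratio of ODC1 to control RPKM of 0.884 in Huh1 and 2.15 in Huh7. EPHX1 had 1.06 in Huh1 and 0.801 in Huh7, and ABCC2 had 0.979 in Huh1 and 1.15 in Huh7. Whether the lines differ in their response was not tested, with 1 library for each combination.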

How the results depend on the processing

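Each count rests on 1 library for each line and siRNA, and leaving 1 out leaves no residual degree of freedom, so those fits gave values and no counts. The count of named genes lower with ODC1 siRNA became 1 (UGT2B4) with upper quartile scaling, and 0 were called each way under the other settings. The count higher in Huh7 became 1 with a filter at 5 RPKM, which leaves fewer genes, and the count lower in Huh7 ranged from 21 of 24 with that filter to 33 of 46 with no filter. Without a trend, with no filter, with the filter at 5 RPKM and without the siRNA term, NR0B2 lost its call between the lines. With a 1.5-fold rule 1 gene was higher and 1 lower in Huh1, and in Huh7 1 was higher, as it was with a pseudocount of 0.1. The siRNA difference turned sign for CES1 with quantile normalization (-0.022) and for BAAT with upper quartile scaling (-0.0053), and the line difference of CYP2R1 turned with upper quartile scaling (-0.043) and quantile normalization (-0.069). The cause was not tested.

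Over all transcripts the siRNA called 181 higher and 74 lower. This became 268 and 196 with upper quartile scaling, 64 and 25 with quantile normalization, 43 and 11 with a pseudocount of 0.1, and 81 and 27 with a filter at 5 RPKM. It was 0 and 0 with no filter or without a trend (limma, 2040 and 1830 transcripts at an unadjusted p under 0.05). In the pairing by line, dropping the block of line also gave 0 and 0 over all transcripts (22 at an unadjusted p under 0.05) and 0 of the named genes, and dropping the siRNA term left 28 lower and 2 higher in Huh7. Quantile normalization moved the median line difference of all transcripts from 0.13 to 0.013. CYP1A1 lost its call with a pseudocount of 0.1, no filter, no trend and no line term, and CYP1B1 with the last 3. Depth limits genes under 1 RPKM, since 1 read over 2 kb gave 0.0374 to 0.0489 RPKM.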

Other observations

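Genes of steroid hormone metabolism outside the named set included the most abundant transcript of all pathway genes examined here in Huh1, though not in Huh7. AKR1C1, an aldo-keto reductase that inactivates progesterone, was at 4497 and 3275 RPKM in Huh1, against 29.6 and 43.9 RPKM in Huh7 (limma difference -6.69, SE 0.18, adjusted p = 1.04e-08). AKR1C2 was at 288 and 245 RPKM in Huh1, against 6.62 and 7.82 RPKM in Huh7. Both were chosen after their values were seen, and the split of reads between such similar copies is uncertain.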
